A study of Mus musculus with 3 samples.

Results

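Pericyte-like mural cells of the mouse femoral artery were picked out, cell by cell, from 3 droplet single-cell RNA sequencing libraries: Sham, D2 and D7. A barcode was taken when it held at least 300 detected genes, at most 15% mitochondrial counts, at least 1 count of Rgs5 and a count of at least 2 of Kcnj8, Abcc9, Higd1b and Vtn, with at most 1 count each of Ptprc (the leukocyte marker CD45) and Pecam1 (the endothelial marker CD31) and none of Pdgfra (a fibroblast receptor). In all, 192 of 30135 barcodes met this rule, 36 in Sham, 9 in D2 and 147 in D7. The cells were thus chosen by the measured counts of these genes, so the levels of those genes below are a description and not a result.

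Sham arteries came from sham-operated wild-type male mice, and D2 and D7 arteries from wild-type males taken 2 and 7 days after wire injury of the femoral artery (FAI), with an age of 8 weeks given for the operated animals. The labels give no day of harvest for the Sham arteries. In each group, live single cells from 6 mice were sorted after DAPI staining and pooled into 1 library of 3′ transcript tags. With 1 library per group there was no replicate and no test between groups was possible. The intervals given are exact 95% intervals that cover counting error only, and not differences between mice, operations, dissociations, sorts or the cells within a group.

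Mural cells wrap the endothelial tube. Smooth muscle cells form rings around arteries and set their calibre through actin and smooth muscle myosin, whereas pericytes lie within the basement membrane of capillaries and venules, stabilise the endothelium through PDGF-B and PDGFRβ signalling, and contract more weakly. In a conduit artery such as the femoral artery, pericytes are known mainly from the vasa vasorum and the small vessels of the adventitia and the tissue around it. After injury of a vessel, mural cells are known for a shift away from contractile genes towards matrix production.

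A level is given in CPM, the UMIs (unique molecular identifiers, 1 per captured transcript) of a gene over the summed cells of a group, relative to all UMIs of that sum. The sums held 230863 (Sham), 173534 (D2) and 1382414 (D7) UMIs, and the median cell had 5873, 17834 and 8697 UMIs. The libraries held 7451, 11473 and 11211 barcodes after the filters on genes and mitochondrial counts, and the deposited libraries shared 21 (D7 and Sham), 22 (D2 and Sham) and 29 (D7 and D2) barcode sequences, none of them a pericyte-like cell in more than 1 library. None of the pericyte-like cells was among the doublets that Scrublet called. Its cut marked 1.64% (Sham), 4.23% (D2) and 3.20% (D7) of barcodes, under the 8% set as the expected rate, so some doublets may have been missed. RNA released from other cells was measured from genes of neutrophils and macrophages, which stood in the pericyte-like cells at a median of 0.783% (Sham), 0.563% (D2) and 1.6% (D7) of their level in the whole library, with the highest single gene at 8.37%, 32.7% and 19.9%.

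Rgs5, a regulator of G protein signalling that marks pericytes (chr1:169655501-169695813 on mm10, plus strand), had summed levels of 2335, 2368 and 6549 CPM at the 3 times, given throughout as Sham, then D2, then D7. Per cell, Rgs5 ranged over 108 to 15359 CPM in Sham with a median of 1532, over 226 to 7055 CPM in D2 with a median of 2345, and over 38.6 to 19939 CPM in D7 with a median of 6348. The ranges of single cells overlapped in all 3 libraries, and the summed level in D7 was 2.81 (2.57 to 3.07) times that in Sham. None of the other 4 rule markers differed 2-fold between D7 and Sham. Kcnj8 (chr6:142564837-142571614, minus strand), the pore of the vascular ATP-sensitive potassium channel, stood at 156, 184 and 149.7 CPM. Abcc9, which encodes the sulphonylurea receptor of the same channel and lies next to Kcnj8 on the same strand (chr6:142587862-142702315), stood at 745, 432 and 616 CPM. Higd1b (chr11:102835849-102838040, plus strand), a gene of a mitochondrial protein family, stood at 308, 294 and 299 CPM. Vtn (chr11:78499091-78502324, plus strand), which encodes the adhesion protein vitronectin, stood at 182, 86.4 and 231 CPM. Abcc9 was the most often detected of these 4, in 33 of 36, 8 of 9 and 143 of 147 cells.

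The label was set against pericyte genes that the rule did not use. Pdgfrb, the PDGF-B receptor of mural cells, stood at 485, 542 and 565 CPM, and 94.4%, 88.9% and 93.2% of the pericyte-like cells held a count of it. Notch3, the mural Notch receptor, stood at 858, 536 and 678 CPM and was seen in 94.4%, 88.9% and 92.5%. In B cells, which should lack both and had median depths of 4015, 4579 and 3593 UMIs, 0.483%, 0.379% and 2.03% held a Pdgfrb count. A Notch3 count was seen in 0 of 207, 0 of 264 and 4 of 543 B cells, and the zeros, read as at most 3 cells each, allow shares of cells with a count of up to 1.45% and 1.14%. Contractile smooth muscle cells, defined below, shared both genes. A Pdgfrb count was seen in 48.4% of them in Sham and 68.4% in D7, and a Notch3 count in 57.1% and 60.8%. These 2 genes thus set the pericyte-like cells apart from B cells, but are not particular to them among mural cells. Mcam (CD146) stood at 191, 323 and 276 CPM. Cspg4, which encodes the pericyte antigen NG2, was nearly absent, with 2, 2 and 49 UMIs in the sums. It was seen in 5.56% of pericyte-like cells in Sham and 14.3% in D7, against 12.1% and 38.0% of contractile smooth muscle cells. Atp13a5, a marker of brain pericytes, had no count in any library.

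Contractile genes were present as well, so the rule did not separate pericytes sharply from smooth muscle. Myh11, the smooth muscle myosin heavy chain, had a count in 29 of 36 cells in Sham, 7 of 9 in D2 and 115 of 147 in D7. Cells just inside the rule, with exactly 2 of the 4 further markers, had 5429.9 CPM of Acta2 (smooth muscle α-actin) in D7, and cells just outside, with exactly 1, had 5585 CPM. In Sham the values were 11260 and 12557 CPM. There were 19, 3 and 47 cells just inside and 25, 2 and 62 just outside in Sham, D2 and D7. Rgs5 stood at 3644 CPM just inside and 2199.6 CPM just outside in D7, and at 2329 and 897 CPM in Sham.

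Genes of other cell types were at a low level, with a pair of exceptions. The 10 monocyte and macrophage genes summed to 117, 86.4 and 106 CPM and the 10 lymphocyte genes to 4.33, 0 and 5.06 CPM. The 10 endothelial genes summed to 4059, 3141 and 2457 CPM. Of 3 that passed the limits for a call given below, Emcn and Flt1 were higher in D7 than in Sham. Over all genes 9.68% were called higher and 5.22% lower. The defining genes Cdh5 and Tie1 had no count in Sham or D2 and stood at 2.17 and 1.45 CPM in D7. Fabp4, a fatty acid binding protein of capillary endothelium and adipocytes, made up most of the endothelial sum with 3985, 2858 and 2171 CPM, against 9935 CPM in the endothelial cells of Sham. Of the pericyte-like cells, 0, 1 and 4 held at least 2 of the endothelial genes Cdh5, Egfl7, Tie1, Emcn and Cldn5. The 10 fibroblast genes summed to 2001, 1602 and 6379 CPM. At least 3 of Dcn, Lum, Dpt, Clec3b, Mfap5, Scara5 and Pi16 were held by 4 of 36 cells in Sham, 0 of 9 in D2 and 25 of 147 in D7. The contractile, basement membrane, interstitial matrix and cytokine lists are given below with and without them, a choice made after the data had been seen. Other lists and most single genes, such as Timp1, Cd248 and Thy1, are given over all cells only.

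The first question was how large the pericyte-like population was at each time. Pericyte-like cells made up 0.483% of the kept barcodes in Sham (interval 0.339 to 0.668), 0.0784% in D2 (0.0359 to 0.149) and 1.31% in D7 (1.11 to 1.54). The share in D7 was 2.71 times that in Sham (1.87 to 4.02), and the share in D2 was 6.16-fold lower than in Sham (2.91 to 14.5). Leukocytes filled most of the D2 library, since 5056 of 7451 barcodes in Sham, 772 of 11473 in D2 and 4219 of 11211 in D7 had no Ptprc count. Among barcodes without Ptprc, pericyte-like cells made up 0.692%, 1.04% and 3.29%. On this base the D7 share was 4.76 times that of Sham (3.27 to 7.11), and the D2 share was 1.5 times that of Sham with an interval (0.600 to 3.28) that includes a ratio of 1. The direction of the D2 difference thus turned with the denominator.

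The rule asks for several genes at once, and a shallow cell can miss them. With every barcode thinned to 2000 UMIs, and 2414, 542 and 821 shallower barcodes left out, the shares were 0.298%, 0.0366% and 0.857%, and the D7 share was 2.88 times that of Sham (1.65 to 5.35). Within mural cells, pericyte-like cells were set against contractile smooth muscle cells, defined as barcodes outside the rule with a Myh11 count and at least 2 of Cnn1, Lmod1, Synpo2 and Mylk under the same limits on Ptprc, Pecam1 and Pdgfra. There were 91, 3 and 79 such cells. Pericyte-like cells were 28.3% of both classes together in Sham (20.7 to 37.0), 75% of 12 cells in D2 (42.8 to 94.5) and 65% in D7 (58.4 to 71.2). How much dissociation and sorting set these shares was not tested.

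**Figure D1:**
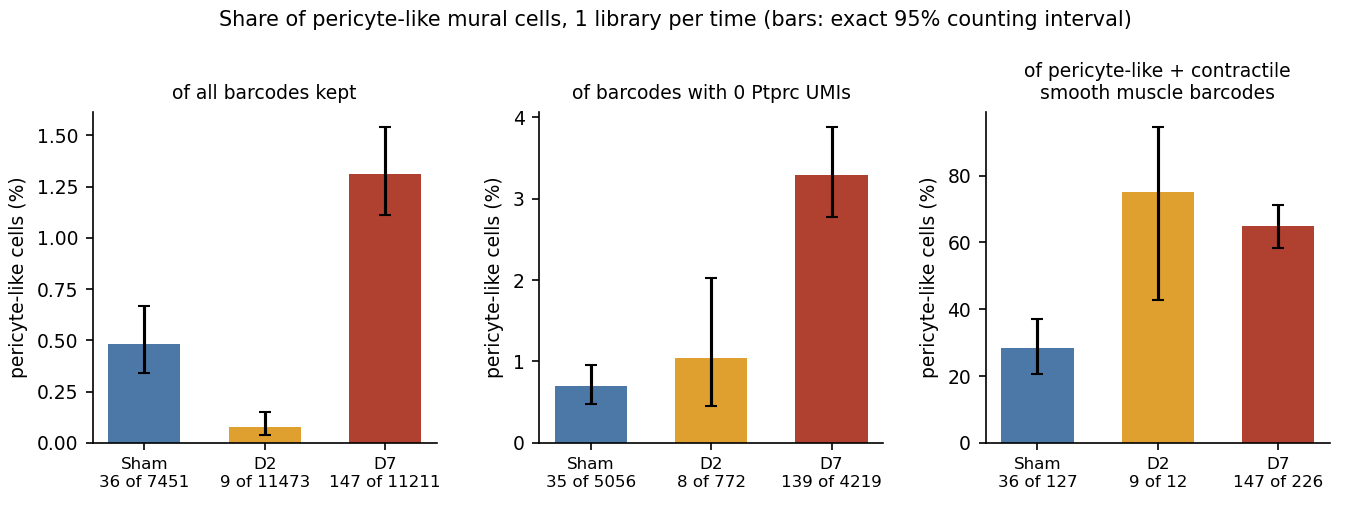
Share of pericyte-like mural cells (%, vertical axis) in the Sham, D2 and D7 libraries, of all barcodes kept, of barcodes without a Ptprc count, and of pericyte-like and contractile smooth muscle cells together, with exact 95% counting intervals. The share was highest in D7 on the first 2 bases, at 1.31% and 3.29%, and D2 was below Sham only when leukocytes were counted.

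Set against the contractile smooth muscle cells of the same library, the pericyte-like cells were higher in Ednrb, Steap4 and Htr7, among others, and lower in Ptgis, S100a4 and Sorbs2. This contrast follows from the rule and had 3 libraries at most, too few for an exact paired test below 0.25, so no test was made. A gene was called when the higher sum had at least 50 CPM and 20 UMIs and the ratio of (CPM + 10) was at least 2, in both Sham and D7. Of 2640 genes measured this way, 105 (3.98%) were called higher and 24 (0.909%) lower in the pericyte-like cells, together 4.89%. All 5 rule markers were among those higher, which the rule fixed. Of the 28 other pericyte genes, 23 could be called in both libraries, and 8 were higher and 1 lower.

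Ednrb, the endothelin B receptor, stood at 172 CPM in pericyte-like cells and 5.34 CPM in smooth muscle in D7, and at 134 and 2.39 CPM in Sham. The ratio was 32.2 (interval 15.4 to 81) in D7 and 56.1 (interval 9.35 to 2287) in Sham, where 1 cell held 58.1% of the counts. Steap4, a metalloreductase, stood at 367 CPM in pericyte-like cells against 19.8 CPM in smooth muscle in D7, and at 355 against 64.6 CPM in Sham. Cyp4b1, a cytochrome P450, had a ratio of 7.98 (interval 5.3 to 12.5) in D7 and 8.27 (interval 3.59 to 22.2) in Sham. These genes lay above smooth muscle in both libraries. Htr7, a serotonin receptor, had a ratio of 12.2 (interval 6.81 to 24.2) in D7 and 6.84 (interval 3.21 to 16.2) in Sham. Il34, a ligand of the macrophage receptor CSF1R, stood at 134 CPM in pericyte-like cells against 19.8 CPM in smooth muscle in D7, and at 156 against 16.8 CPM in Sham. Rgs16, a regulator of G protein signalling, had a ratio of 5.25 (interval 4.22 to 6.58) in D7 and 8.6 (interval 3.95 to 21.3) in Sham, and the scaffold gene Lin7a of 7.31 (interval 5.79 to 9.34) in D7 and 5.04 (interval 3.08 to 8.5) in Sham.

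On the low side, Ptgis, the prostacyclin synthase, had 8 UMIs in the pericyte-like cells of D7 and 0 in those of Sham, against 132 and 151 CPM in smooth muscle. S100a4, a calcium-binding protein, stood at 175 CPM in pericyte-like cells against 1690.5 CPM in smooth muscle in D7, where 1 pericyte-like cell held 55% of its counts, and at 34.7 against 526 CPM in Sham. Sorbs2, an adaptor of the actin cytoskeleton, was lower by a factor of 7.97 (interval 5.96 to 10.9) in D7 and 8.56 (interval 5.32 to 14.7) in Sham. Of the TGF-β and BMP list 13 genes could be called, and 1 was higher and 2 lower. Ltbp1, which holds latent TGF-β in the matrix, stood at 26.8 CPM in pericyte-like cells against 183 CPM in smooth muscle in D7, and at 30.3 against 165 CPM in Sham. Pmepa1, a feedback inhibitor of TGF-β signalling, Inhba, the activin A subunit, and the matricellular gene Ccn2 were lower by factors between 2.92 and 7.52 in D7 and between 2.2 and 2.48 in Sham. Dstn and Hspb1 were also among the 10 lowest but were under 2-fold in at least 1 library. None of the 22 contractile genes was called higher in the pericyte-like cells in both libraries and 1 was called lower, of 16 that could be called. Contractile genes summed to 16452 CPM in pericyte-like cells and 25431 CPM in smooth muscle in D7, and to 35155 and 56344 CPM in Sham.

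**Figure D2:**
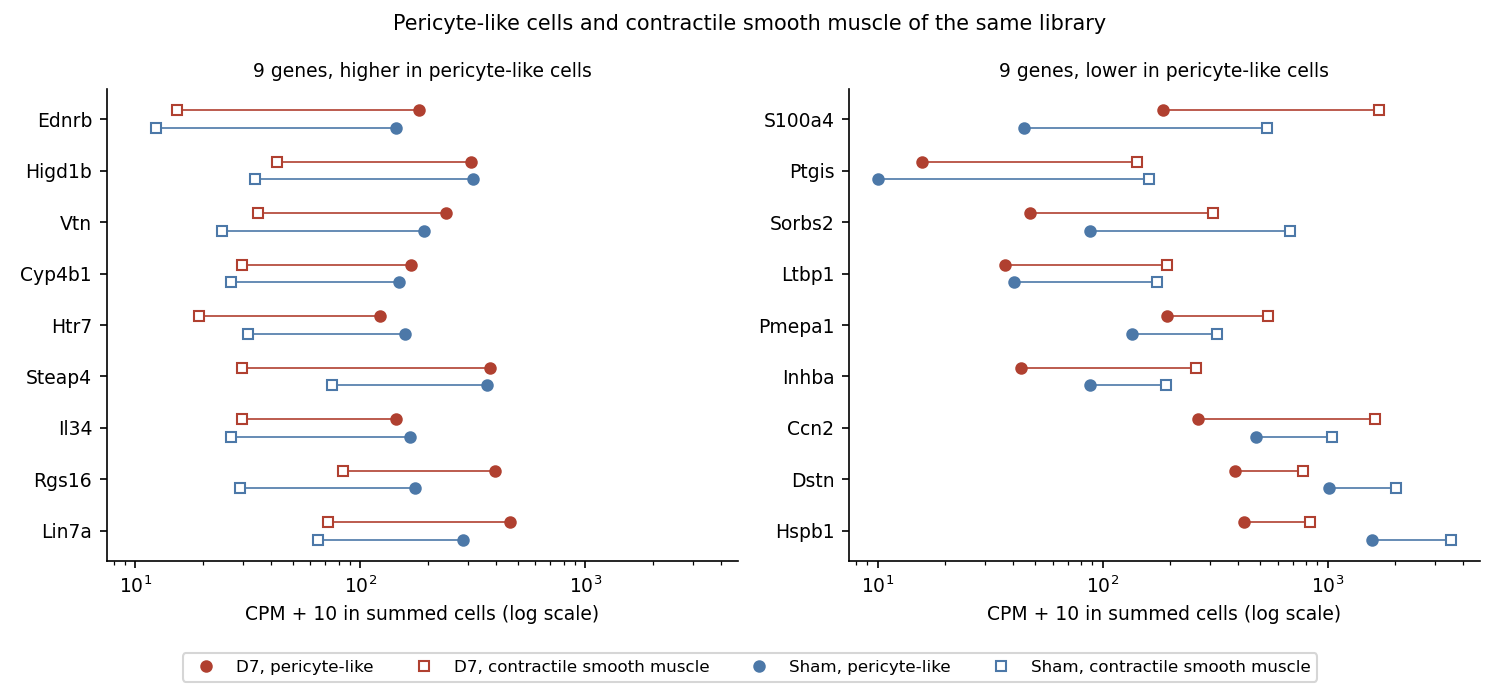
Level of 9 of the 10 genes most above and 9 of the 10 most below contractile smooth muscle (rows), as CPM + 10 on a log scale, in pericyte-like cells (filled circles) and contractile smooth muscle (open squares) of the D7 and Sham libraries. Ednrb, Higd1b and Vtn lie to the right in pericyte-like cells, and S100a4, Ptgis and Sorbs2 to the left, in both libraries.

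The next question was how the pericyte-like cells of the injured artery differed from those of the sham-operated artery. Between D7 and Sham, 3296 genes passed the minimum of 50 CPM with 20 UMIs in whichever sum was higher. Of these, 319 (9.68%) were at least 2-fold higher in D7 and 172 (5.22%) at least 2-fold lower, by the ratio of (CPM + 10). Since 20 UMIs make a higher level in the smaller Sham sum, this filter held back more of the genes that were higher in Sham. With the top cell of each gene left out of each sum, 432 were called higher and 113 lower. The median log2 ratio of the 3296 genes was 0.18. Over genes with at least 20 UMIs in both sums it was -0.09, so the sign of any common shift depended on the filter. D2 had too few cells for calls, and its values are given beside the others.

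Timp1, Cd248 and Thy1 were among the 10 genes with the highest ratios. Timp1, an inhibitor of metalloproteinases, had no count in Sham, 213 CPM in D2 and 152 CPM in D7, and was at least 11.7-fold higher in D7 than in Sham, with Sham set at 3 counts over the group. Cd248, the stromal glycoprotein endosialin, stood at 0, 92.2 and 116 CPM and was at least 8.96-fold higher in D7 than in Sham. It was seen in 75 of 147 cells in D7 and in 0 of 36 in Sham, which, read as at most 3 cells, allows a share of cells with a count of up to 8.33%. Thy1, a surface glycoprotein of stromal cells, stood at 30.3, 547 and 321 CPM, a ratio of 10.6 (5.1 to 26.5) between D7 and Sham. It was seen in 116 of 147 cells in D7 and in 6 of 36 in Sham, so the difference was spread over most cells.

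The metalloproteinase Adam12 stood at 17.3, 231 and 234 CPM, with a D7 to Sham ratio of 13.5 (5.23 to 49.9), and its relative Adamts9 at 30.3, 202 and 307 CPM, with a ratio of 10.1 (4.88 to 25.4). Runx1, a transcription factor, stood at 30.3, 167 and 312 CPM, with a ratio of 10.3 (4.95 to 25.7). Piezo2, a mechanically gated channel, stood at 13, 156 and 152 CPM, with a ratio of 11.7 (3.95 to 57.1). All 4 were already above Sham in D2 in these sums. Hp (haptoglobin) and Ctsk (cathepsin K) were also among the 10 highest, but 1 D7 cell held 40.2% and 51.9% of their counts.

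On the low side, Cd36, a fatty acid transporter, stood at 606, 219 and 56.4 CPM and was 10.7-fold lower (interval 8.09 to 14.4) in D7 than in Sham. In Sham it was seen in 20 of 36 cells, and the endothelial cells of that library had 1587 CPM. Gstm1, a glutathione transferase, stood at 1490.1, 299.7 and 205 CPM and was 7.28-fold lower (interval 6.2 to 8.55). Fst, which encodes the activin antagonist follistatin, stood at 1455, 115 and 243 CPM and was 5.99-fold lower (interval 5.13 to 6.99). Enpp2, which encodes autotaxin, stood at 208, 17.3 and 27.5 CPM and was 7.56-fold lower (interval 4.84 to 11.9). Mamdc2 had 31 UMIs in Sham and 4 in D7 and was 46.4-fold lower (interval 16.4 to 181). Sh3bgr, Thsd4, Cdc42ep3, Actc1 (cardiac α-actin) and the matricellular gene Ccn3 completed the 10 lowest, with D7 levels 6.83-fold (Actc1) to 15-fold (Sh3bgr) below Sham. All 5 of these had no count in D2.

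Contractile genes formed the group with the most members below Sham in the summed cells. The Sham sum was itself mixed, with contractile counts at 0.920% of a cell's UMIs at the lower quartile and 4.95% at the upper. Its 29 cells with a Myh11 count had 10108 CPM of Acta2 and 2449 CPM of Fabp4, and the 7 without had 824 and 14623 CPM. How far the mix of cells set the difference was not tested. Of the 22 contractile genes, 17 could be called between D7 and Sham, and 14 were lower and 1 higher. Over all genes 5.22% were lower and 9.68% higher. The median log2 ratio over all 22 was -1.14, against 0.18 for the genes that passed the filter on CPM and UMIs. Myh11 stood at 2443, 299.7 and 537 CPM and was 4.55-fold lower (interval 4.07 to 5.09) in D7 than in Sham. Per cell its median was 2028 CPM in Sham, 188 CPM in D2 and 332 CPM in D7, and the ranges overlapped, with 7 Sham cells at 0. Cnn1 (calponin) stood at 836, 11.5 and 153 CPM and was 5.48-fold lower (interval 4.48 to 6.69). Acta2 stood at 8936, 4812 and 4379 CPM and was 2.04-fold lower (interval 1.94 to 2.15). Its median per cell was 7020.1, 1508 and 2351 CPM. Myl9, the regulatory myosin light chain, stood at 2304, 813 and 841 CPM, and Ldb3, a Z-disc protein gene, at 95.3, 0 and 14.5 CPM. Myocd, which encodes the coactivator myocardin that drives contractile genes, stood at 256, 0 and 62.2 CPM and was 4.11-fold lower (interval 2.9 to 5.79). Des, the intermediate filament desmin, was the exception at 99.6, 334 and 278 CPM, 2.79-fold higher (interval 1.83 to 4.45) in D7 than in Sham, and was seen in 113 of 147 D7 cells.

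**Figure D3:**
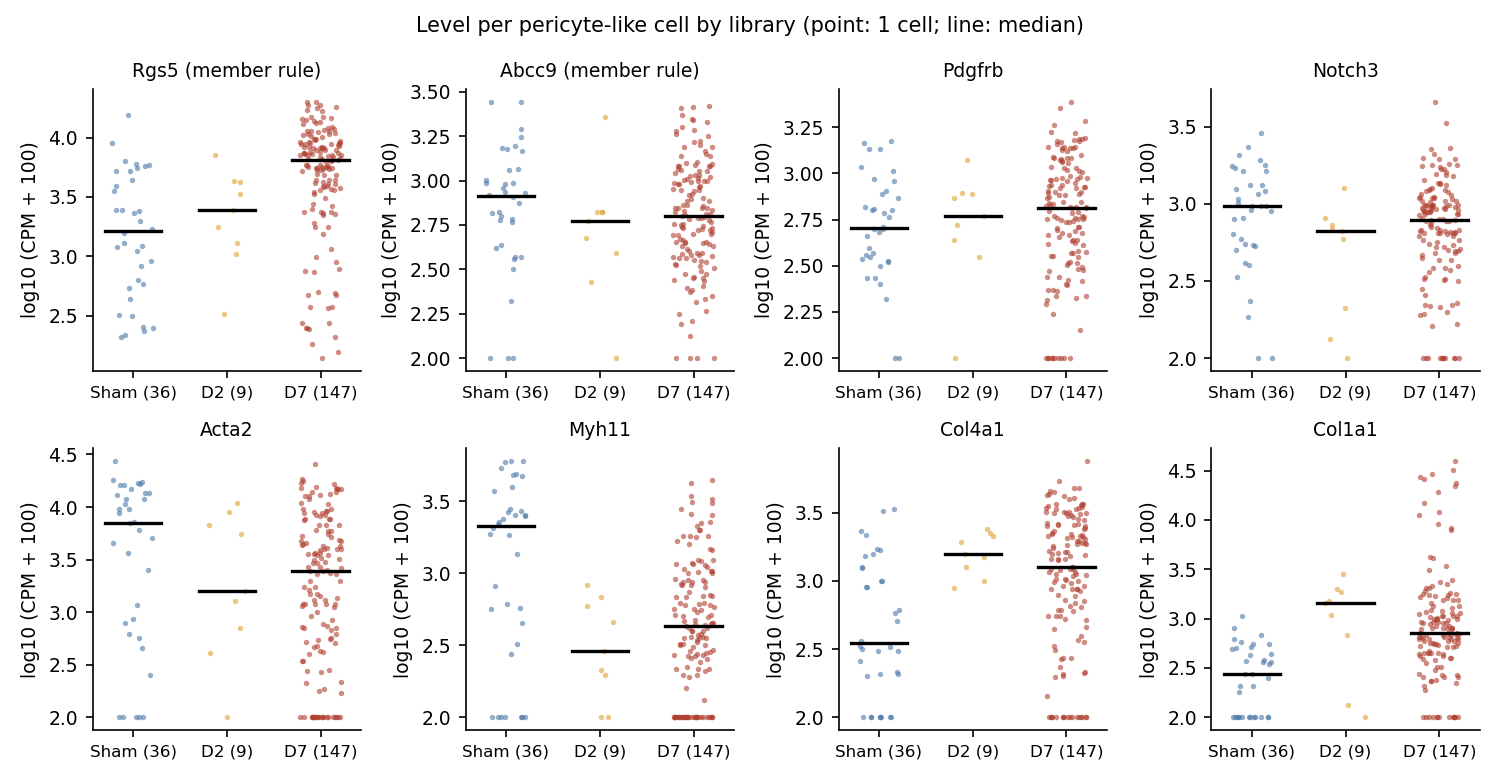
Level per pericyte-like cell, as log10 of (CPM + 100), of Rgs5 and Abcc9 (both part of the rule), Pdgfrb, Notch3, Acta2, Myh11, Col4a1 and Col1a1 in the Sham, D2 and D7 libraries, with the number of cells in parentheses. Each point is 1 cell and each line the median of a library. Myh11 has a median of 2028 CPM in Sham and 332 CPM in D7, whereas the medians of Pdgfrb lie between 406 and 549.9 CPM in all 3 libraries.

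Contractile smooth muscle of the same libraries was lower in D7 as well. The contractile sum of the pericyte-like cells in D7 was 2.14-fold below that in Sham, and that of contractile smooth muscle was 2.22-fold below. In smooth muscle, where 14.4% of 3853 genes measured were called higher and 10.9% lower, 12 of 20 contractile genes were called lower and 0 higher. The list includes Myh11, Cnn1, Lmod1, Synpo2 and Mylk, by which the smooth muscle cells were chosen. Des differed, at 109 CPM in D7 and 182 CPM in Sham in smooth muscle. Without the cells that held fibroblast genes, 10 of 16 contractile genes were called lower in the pericyte-like cells and 1 higher. The difference also varied with the number of further markers. Acta2 stood at 5429.9 CPM in D7 and 11260 CPM in Sham in cells with 2 of the 4, at 4620 CPM in D7 and 7787 CPM in Sham in cells with 3, and at 3041 CPM in D7 and 349 CPM in Sham in cells with all 4, where the direction turned on 39 D7 and 4 Sham cells. Myh11 stood at 686 CPM in D7 and 3142 CPM in Sham with 2, at 608 CPM in D7 and 2001 CPM in Sham with 3, and at 293 CPM in D7 and 299 CPM in Sham with all 4. Cells with all 4 were 26.5% of the pericyte-like cells in D7 and 11.1% in Sham. The depth at which cells were chosen moved the ratios too. With barcodes thinned to 1000 UMIs before the rule was applied, 9 Sham and 40 D7 cells met it, and the D7 to Sham ratios were then 1.04 for Acta2 and 1.01 for Myh11, so the lower level was not seen among the cells that passed at that depth. Thinned to 2000 UMIs (15 Sham and 89 D7 cells) the ratios were 0.738 for Acta2 and 0.377 for Myh11.

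Contractile genes are known targets of the serum response factor, which with myocardin binds the CArG box, a pair of C, a run of A or T and a pair of G. The promoters of the RefSeq table for GRCm38.p6, from 250 bases before to 50 after the start of the gene, were searched for it on both strands, which are the same search because the motif reads alike on each. The box was in 535 of 32851 promoters (1.63%). The lists were counted by gene, with a gene taken to hold a box if any of its promoters did. The shares are thus in unlike units, since the 18 contractile genes had 20 promoters and the 18 interstitial matrix genes 23. Of the 18 contractile genes with a promoter in the table, 3 held it, Myl9, Ldb3 and Srf. It was in 1 of 13 basement membrane genes, Lama2, which was higher in D7, and in none of 18 interstitial matrix genes, 18 other pericyte genes and 4 rule markers. A box with 1 letter in the middle that is not A or T was in 8.50% of promoters, and in 3 of 18 contractile and 3 of 18 interstitial matrix genes alike. Acta2 had 2 of these and Myl9 had 1. The promoters of Myl9, Ldb3 and Acta2, all lower in D7, are shown because they carry boxes of these kinds. For Ldb3, which has 2 promoters in the table, 1 that holds the box is shown. The sequences run 5′ to 3′ on the strand of the gene, with the boxes of both kinds in capitals. They lie at chr2:156775214-156775513 (plus strand), chr14:34588632-34588931 (minus) and chr19:34255324-34255623 (minus).
Myl9: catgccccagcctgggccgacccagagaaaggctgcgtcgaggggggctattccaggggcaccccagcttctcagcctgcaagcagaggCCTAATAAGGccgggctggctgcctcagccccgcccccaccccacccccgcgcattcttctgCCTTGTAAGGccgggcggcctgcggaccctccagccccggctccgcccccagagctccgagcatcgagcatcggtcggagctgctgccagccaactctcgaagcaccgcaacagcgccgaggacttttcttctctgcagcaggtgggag
Ldb3: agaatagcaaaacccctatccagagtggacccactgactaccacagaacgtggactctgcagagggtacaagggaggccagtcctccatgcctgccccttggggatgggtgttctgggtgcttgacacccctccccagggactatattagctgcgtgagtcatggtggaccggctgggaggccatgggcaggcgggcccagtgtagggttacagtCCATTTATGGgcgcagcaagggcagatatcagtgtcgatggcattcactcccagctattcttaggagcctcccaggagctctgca
Acta2: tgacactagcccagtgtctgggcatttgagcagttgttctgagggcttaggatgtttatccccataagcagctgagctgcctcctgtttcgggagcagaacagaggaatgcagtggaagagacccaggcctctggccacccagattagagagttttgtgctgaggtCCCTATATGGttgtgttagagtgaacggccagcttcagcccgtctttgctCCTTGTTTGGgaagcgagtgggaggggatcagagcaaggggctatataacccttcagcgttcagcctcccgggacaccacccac
The matches describe these letters only, and binding was not measured. The levels of Myl9, Ldb3 and Acta2 in D7 were 2.74-fold, 6.59-fold and 2.04-fold below Sham, while Srf, which holds the box too, stood at 16.6 CPM in D7 and 17.3 CPM in Sham on 23 and 4 UMIs.

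The other pericyte genes had few calls, at a share near that of all genes measured. Of the 28 other pericyte genes, 22 could be called between D7 and Sham, and 3 were higher and 0 lower, against 9.68% higher and 5.22% lower over all genes. The higher ones were Ndufa4l2, a hypoxia-induced mitochondrial protein gene, with 212, 680.0 and 477 CPM and a D7 to Sham ratio of 2.25 (1.68 to 3.07), Cygb (cytoglobin), with 91, 299.7 and 316 CPM and a ratio of 3.48 (2.25 to 5.67), and S1pr3, a sphingosine 1-phosphate receptor, with 17.3, 34.6 and 70.9 CPM and a ratio of 4.09 (1.55 to 15.3) on 98 and 4 UMIs. Pdgfrb had a ratio of 1.16 (0.954 to 1.43), Notch3 of 0.79 (0.677 to 0.926), Ednra, the endothelin A receptor, of 1.38 (1.07 to 1.8) and Steap4 of 1.03 (0.816 to 1.32). None of these 4 passed 2-fold. With cells thinned to 1000 UMIs before the rule was applied, the ratios of Ndufa4l2, Cygb and S1pr3 turned to 0.412, 0.562 and 0.45. In contractile smooth muscle 5 of 19 of the same genes were called lower and 0 higher, against 10.9% lower and 14.4% higher over all genes measured there. There Notch3 stood at 195 CPM in D7 and 529 CPM in Sham, and Steap4 at 19.8 and 64.6 CPM. The difference between the classes was not tested, with 1 library per group.

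Ion channel and calcium handling genes set the vessel's tone through membrane potential and calcium. In the pericyte-like cells 10 of 19 could be called, with 1 higher and 1 lower in D7, a share near that of all genes, and the 10 include the rule markers Kcnj8 and Abcc9. Trpc6, a cation channel, stood at 65, 86.4 and 154 CPM, 2.37-fold higher (interval 1.41 to 4.31) in D7 than in Sham, a direction that turned with cells thinned to 1000 UMIs (ratio 0.9). Kcnk3, the potassium channel TASK-1, stood at 212, 46.1 and 84.6 CPM and was 2.51-fold lower (interval 1.76 to 3.53). The L-type calcium channel gene Cacna1c stood at 758, 692 and 520.1 CPM, Ano1, a calcium-activated chloride channel, at 269, 74.9 and 195 CPM, and the inositol trisphosphate receptor Itpr1 at 178, 190.2 and 199.7 CPM, all under 2-fold apart between D7 and Sham. In smooth muscle 8 of 13 were called lower and 0 higher in D7, against 10.9% lower and 14.4% higher over all genes measured in smooth muscle. The difference between the classes was not tested. Pln (phospholamban) and Ryr2 (the ryanodine receptor) had no count in the pericyte-like cells of Sham, against 187 and 163 CPM in smooth muscle of that library.

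Of 25 vasoactive receptor and cyclic GMP genes, 12 could be called and 3 were higher in D7, among them S1pr3 and the rule marker Rgs5 itself. Over all genes 9.68% were called higher and 5.22% lower, which also stands beside the Notch and transcription factor lists below. The third was Adra2a, an α2 adrenergic receptor, with 30.3, 28.8 and 145 CPM and a ratio of 4.77 (2.27 to 12). It was seen in 70 of 147 cells in D7 and 6 of 36 in Sham. The angiotensin receptor Agtr1a stood at 126, 86.4 and 70.9 CPM, and the subunits of the nitric oxide receptor, Gucy1a1 and Gucy1b1, at 602, 133 and 349 CPM and 325, 179 and 204 CPM. These 3 were lower in D7 than in Sham by less than 2-fold on the (CPM + 10) scale. In the Notch list, 0 of 4 genes were called, with the ligand Jag1 at 113, 34.6 and 111 CPM and the target Hes1 at 243, 156 and 196 CPM. Of 20 mural transcription factors 11 could be called and Myocd alone was, lower. Ebf1 stood at 2170.1, 1319.6 and 2545 CPM, Nr2f2 at 927, 674 and 801 CPM, Zeb2 at 1459.7, 893 and 1613 CPM and Prrx1 at 845, 421 and 786 CPM, and the D7 to Sham ratios of these 4 lay between 0.865 and 1.17.

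**Figure D4:**
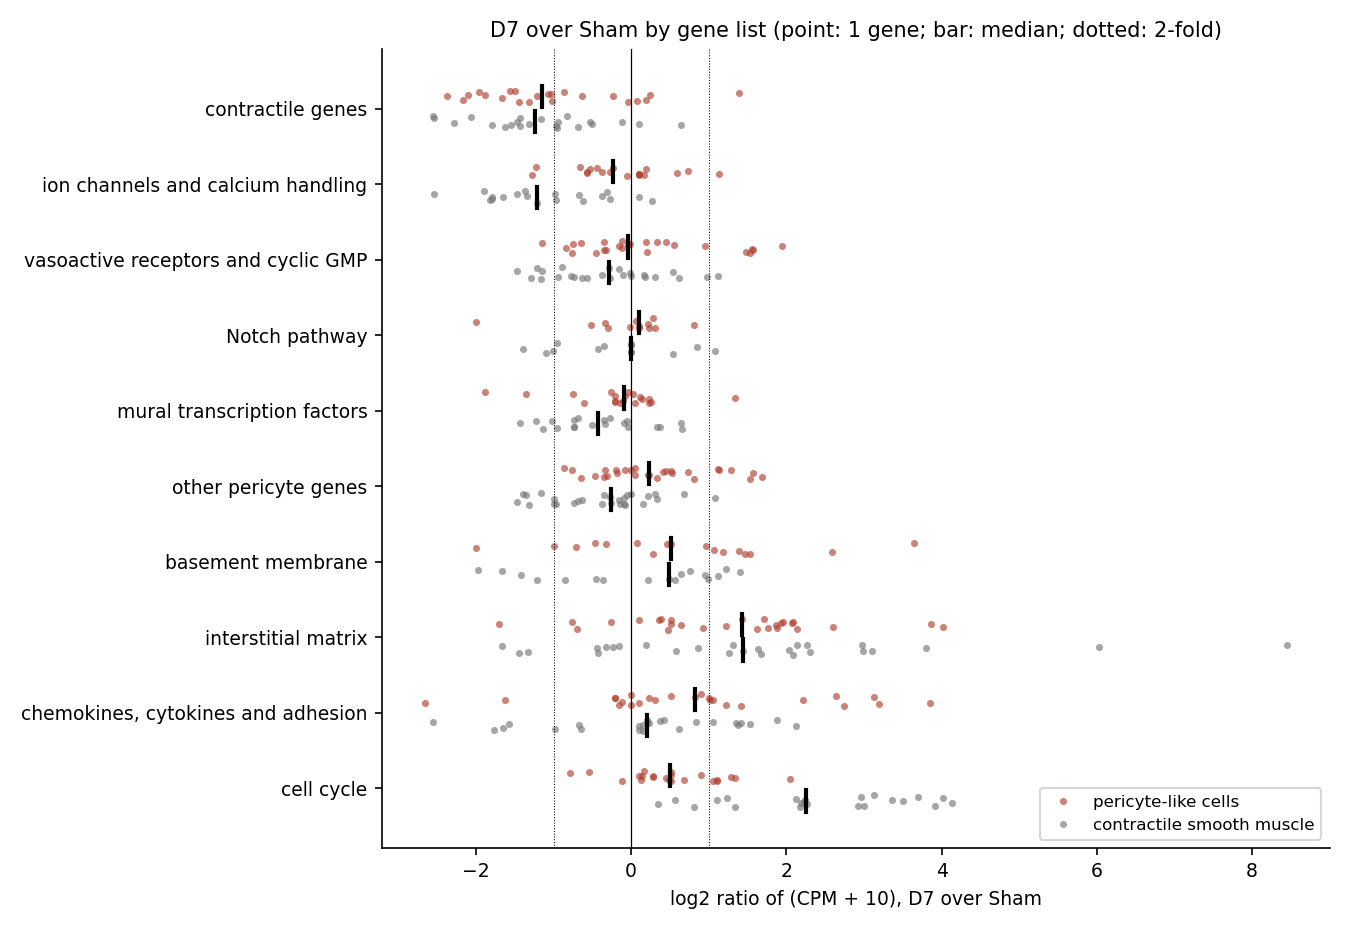
Log2 ratio of (CPM + 10) between D7 and Sham for each gene (points) of 10 lists, in pericyte-like cells (upper row of each pair) and in contractile smooth muscle (lower row), with the median as a black bar and 2-fold as dotted lines. The contractile medians lie near each other, at -1.14 in pericyte-like cells and -1.24 in smooth muscle, while those of the ion channels (-0.24 and -1.22) and cell cycle genes (0.51 and 2.26) lie apart.

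Basement membrane genes, which make the sheet that encloses pericytes, were called higher in D7 more often than lower. Of 17 genes, 13 could be called, with 6 higher and 1 lower, against 9.68% higher and 5.22% lower over all genes. Col4a1, a chain of the main type IV collagen, stood at 580.4, 1614 and 1629.8 CPM and was 2.81-fold higher (interval 2.36 to 3.37) in D7 than in Sham. Its median per cell was 249, 1470.4 and 1176 CPM, and all 9 D2 cells lay above the Sham median. Its partner Col4a2 stood at 251, 697 and 746 CPM, with a ratio of 2.97 (2.28 to 3.94). Col18a1, the source of endostatin, stood at 86.6, 455 and 573 CPM, with a ratio of 6.61 (4.25 to 10.9), and was seen in 124 of 147 D7 cells and 14 of 36 Sham cells. Nid1 (nidogen) stood at 121, 340.0 and 265 CPM, with a ratio of 2.19 (1.49 to 3.34). Col15a1 had 0, 0 and 159 UMIs and was at least 8.85-fold higher in D7 than in Sham, and Lama2 had 8, 0 and 148 UMIs. Col4a5 was on the other side, 5.99-fold lower (interval 3.11 to 11.5) in D7 on 21 UMIs in each sum. Sparc, a collagen-binding matricellular protein gene, stood at 2885, 7411 and 5658 CPM, just under the 2-fold limit. By number of further markers, Col4a1 stood at 676 CPM in D7 and 461 CPM in Sham with 2, at 1607 CPM in D7 and 459 CPM in Sham with 3, and at 2565 CPM in D7 and 1844 CPM in Sham with all 4. The difference was thus under 2-fold in cells with 2 or 4 markers, and the mix of marker numbers differed between the libraries. Without the cells that held fibroblast genes, 6 of 11 basement membrane genes were called higher and 1 lower, and the Col4a1 ratio was 3.18.

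Interstitial matrix genes had the highest median log2 ratio of all the lists, 1.43 over 27 genes. Of 25 that could be called, 14 were higher and 1 lower, against 9.68% higher and 5.22% lower over all genes. Over all kept barcodes the list summed to 11746 CPM in Sham and 36348 CPM in D7. A Col1a1 count was seen in 11.1% of B cells in Sham and 35.7% in D7. How much RNA released from other cells added to the matrix levels of the pericyte-like cells was not tested. Part of the difference in the pericyte-like cells lay in few cells. Col1a1, a chain of type I collagen, stood at 259.9, 1331 and 3926 CPM, a D7 to Sham ratio of 15.1 (11.7 to 19.8). The median D7 cell had 617 CPM and the highest 39366 CPM, against a Sham median of 173 and a Sham maximum of 970.2 CPM. In the 25 D7 cells with fibroblast genes Col1a1 stood at 12564 CPM, and in the other 122 at 874 CPM, against 255 CPM in the Sham cells chosen alike. The same 25 cells had 3095 CPM of Rgs5 and 302 CPM of Pdgfrb, against 7769.7 and 658 CPM in the other 122.

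Without these cells 11 of 21 interstitial genes were still called higher and 2 lower (background 10.4% higher and 5.06% lower), and the median log2 ratio was 0.868. The summed level of the list was then 18721 CPM in D7 and 10829.8 CPM in Sham, against 29046 and 10950.2 CPM with them. The ratio of Col1a1 became 3.42, that of Col3a1 (type III collagen) 2.09 in place of 3.66 and that of Fn1 (fibronectin) 2.64 in place of 4.61. Mgp, the matrix Gla protein that inhibits calcification, stood at 1299, 4201 and 5085 CPM with all cells, and its ratio was 3.41 without them and 3.91 with them. Bgn (biglycan) stood at 256, 1274 and 968 CPM, Col5a1 at 104, 352 and 426 CPM and Fbn1 (fibrillin) at 108, 398 and 378 CPM, and their ratios without these cells were 2.67, 2.75 and 2.66. Timp3, an inhibitor of metalloproteinases that binds to matrix, was lower, with 1057, 375 and 318 CPM. Eln (elastin) stood at 654, 74.9 and 399 CPM. Contractile smooth muscle had 16 of 26 interstitial genes higher and 3 lower in D7 than in Sham. Over all genes measured in smooth muscle, 14.4% were higher and 10.9% lower.

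Cytokine and adhesion genes were also called higher more often than lower. Of 25 genes, 17 could be called, and 8 were higher and 2 lower, beside the same 9.68% and 5.22% over all genes. Il33, the alarmin that the study names in its title, had 0, 1 and 107 UMIs in Sham, D2 and D7. In D7 this was 77.4 CPM, at least 5.96-fold higher than in Sham, and 27 of 147 cells held a count. In the 25 D7 cells with fibroblast genes it stood at 227 CPM and in the other 122 at 24.5 CPM, and the fibroblasts of the D7 library had 504 CPM. Il1rl1, which encodes its receptor ST2, had no count in the pericyte-like cells of any library.

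Nfkbia, an inhibitor and target of NF-κB, stood at 229.6, 219 and 547 CPM, with a ratio of 2.38 (1.8 to 3.21). Icam1, a leukocyte adhesion molecule, stood at 17.3, 51.9 and 117 CPM, with a ratio of 6.76 (2.59 to 25.1) on 162 and 4 UMIs. Ccl11 (eotaxin) stood at 121, 841 and 256 CPM and was seen in 77 of 147 D7 cells, with a ratio of 2.11 (1.44 to 3.22). Others rested on single cells. In D7, 1 cell held 51.9% of the counts of Ccl2, the monocyte chemokine, 40.8% of Cxcl2, a neutrophil chemokine, and 99.1% of Saa3, and in Sham 1 cell held all counts of Cxcl9 and 79.6% of Cxcl10, the 2 genes called lower. Without the cells that held fibroblast genes, 7 of 12 genes were called higher and 2 lower.

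The remaining lists held few calls, to be read beside the 9.68% called higher and 5.22% called lower over all genes. Of 22 TGF-β and BMP genes, 16 could be called, with 1 higher and 3 lower, the lower ones Id2, Id4 and Bmp2. Id4, an inhibitor of helix-loop-helix factors, had levels of 953, 34.6 and 315 CPM and was 3.03-fold lower (interval 2.56 to 3.57) in D7 than in Sham. Among growth factor genes, Pdgfd was 2.5-fold lower (interval 1.82 to 3.4), and Flt1, the VEGF receptor 1, stood at 34.7, 161 and 168 CPM, with a ratio of 4.84 (2.42 to 11.4). In smooth muscle 10 of 20 early response and heat shock genes were lower and 0 higher in D7, against 10.9% lower and 14.4% higher over all genes there. In the pericyte-like cells all 20 could be called, with Ier2 higher and Hspa1a, Hspa1b and Hspb1 lower. Hspb1, a small heat shock protein gene, stood at 1559, 288 and 415 CPM, and Fos at 2009.8, 605 and 1498 CPM. Of the interferon list 1 of 10 was higher, Bst2 (tetherin) at 113, 421 and 262 CPM, and of 15 oxidative phosphorylation genes none was called in either direction.

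Cell cycle genes were low in the pericyte-like cells in Sham and D7. Of 5 that could be called between D7 and Sham, 0 were called, and 10 mitotic genes together (Mki67, Top2a and 8 others) summed to 0 CPM in Sham, 346 CPM in D2 and 82.5 CPM in D7. A count of at least 3 of the 10 was seen in 0 of 36, 3 of 9 and 2 of 147 cells. The contractile smooth muscle cells of D7 had 1017 CPM, and 21 of 79 of them (26.6%, interval 17.3 to 37.7) held at least 3 of the 10, against 1.36% (0.165 to 4.83) of the pericyte-like cells of D7. These 21 had a median of 31703 UMIs, against 9702 for their class and 8697 for the pericyte-like cells. The part of that depth in the difference was not tested. Of the cell cycle list, 14 of 16 genes were called higher in D7 than in Sham in smooth muscle, against 14.4% over all genes measured there.

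Among themselves, the pericyte-like cells of D7 varied most in Acta2. The 10 genes of highest variance beyond counting noise were Acta2, Mgp, Tagln, Fabp4, Csmd1, Rgs5, Col3a1, Fos, Malat1 and Tmsb4x. Contractile counts made up 0.251% to 8.89% of a cell's UMIs in Sham, with a median of 2.95%, 0.433% to 2.69% in D2, with a median of 0.941%, and 0.0535% to 7.42% in D7, with a median of 1.15%. Fabp4 had a median of 1644 CPM in D7 and of 255 CPM in Sham, where the highest cell reached 47774 CPM. Over the 147 D7 cells the levels of Acta2 and Myh11 had a Spearman ρ of 0.67 and those of Rgs5 and Acta2 of −0.10, given as a description of the cells of 1 library. The raw counts of both followed the depth of the cell, with a ρ of 0.47 for Rgs5 and 0.33 for Acta2.

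Medians of Col4a1 and Steap4 in the D7 cells rose with the number of further markers, whereas those of Acta2 and Col1a1 did not. The 47 cells with 2, the 61 with 3 and the 39 with all 4 had medians of 6114, 9050.0 and 9132 UMIs, so depth moved with this order and its part in it was not tested. Col4a1, which the rule did not use, had medians of 517, 1126 and 2449.9 CPM, and Steap4 of 74.1, 303 and 432 CPM. Acta2 had medians of 2615, 2935 and 1212 CPM. Summed Col1a1 was 8873, 2569 and 1185 CPM, while its medians were 893, 583 and 610.4 CPM. The 32 D7 cells without a Myh11 count had 11702 CPM of Col1a1 and 3655 CPM of Rgs5, and the 115 with one had 1998 and 7267 CPM.

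**Figure D5:**
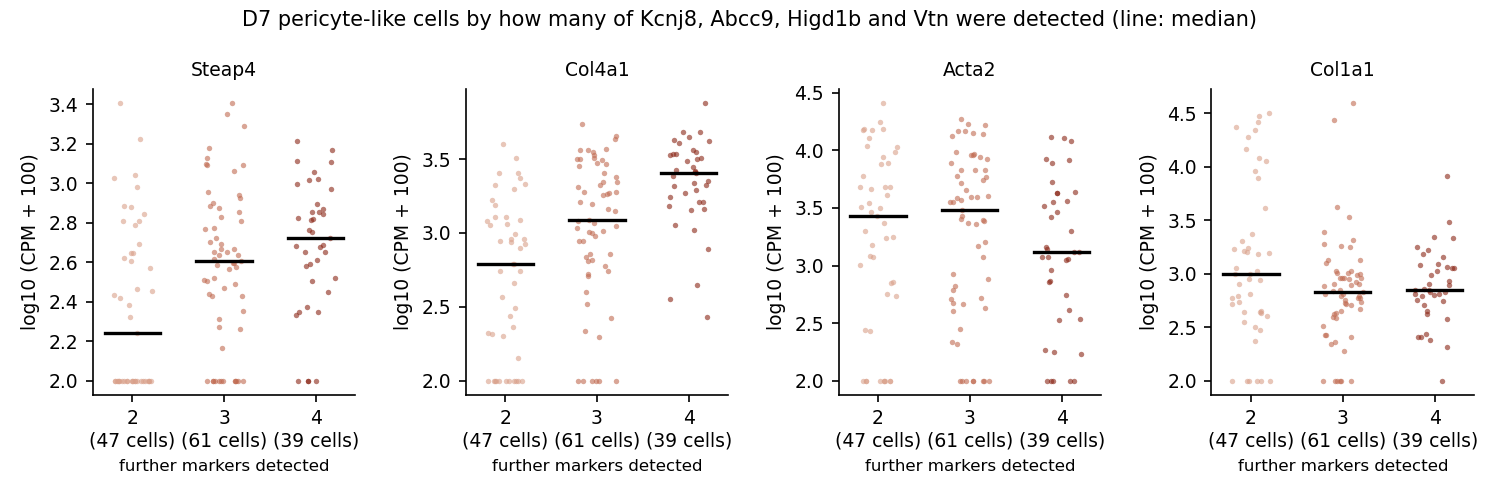
Level per D7 pericyte-like cell, as log10 of (CPM + 100), of Steap4, Col4a1, Acta2 and Col1a1, by how many of Kcnj8, Abcc9, Higd1b and Vtn were detected in the cell (2, 3 or 4). Points are cells and lines medians. Col4a1 medians run over 517, 1126 and 2449.9 CPM, and no cell with 4 markers exceeds 8163 CPM of Col1a1.

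The 9 pericyte-like cells of D2 are described by their values only. They were the deepest group, and 7 of 9 held a Myh11 count. Their contractile sum was 15046 CPM, against 35155 CPM in Sham, with Cnn1 at 2 UMIs and Actc1, Ldb3 and Myocd at 0. Basement membrane genes summed to 11197 CPM, against 4829.7 CPM in Sham. Ccl11 stood at 841 CPM in D2 and 121 CPM in Sham, and Cxcl5, a neutrophil chemokine, at 190.2 CPM in D2, with all 33 UMIs in 1 cell, and 0 in Sham. Ednrb stood at 663 CPM in D2 and 134 CPM in Sham. Id4 had 6 UMIs in D2 against 220 in Sham, and Id2 had 1 against 67. The interferon list summed to 6045 CPM in D2 and 3409 CPM in Sham, with Ifitm3 at 3331 and 1234 CPM. Glycolysis and hypoxia genes summed to 3884 CPM in D2 and 2109 CPM in Sham. With so few cells, 1 cell can carry much of such a sum.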

How the data were processed

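The deposited matrices hold raw UMI counts per gene and barcode, written by Cell Ranger 7.1.0 per the file headers. Per the submitters' processing notes, mm10, Seurat 5.0.1 and Cell Ranger 7.2.0 were used. Values were checked to be whole numbers. No cell annotation was used. Members and gene lists were chosen with earlier results of these data known.

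Counts were summed per class and library and scaled to CPM (Python 3.11.15, NumPy 2.4.6, SciPy 1.17.1, pandas 2.3.3). Shares carry Clopper-Pearson, levels Poisson and ratios conditional binomial intervals at 95%. A sum of 0 was set at 3 counts for a bound. Calls need 50 CPM, 20 UMIs and a 2-fold ratio of (CPM + 10), with at least 20 cells in each sum. They were also run on simulated Poisson sums. These had no variation between cells or libraries, so that run does not show how the calls hold in the real sums. Named genes had at least 100 CPM, 20 UMIs and a UMI in 10% of cells in the higher sum and at least 0.25 of the level in any class other than smooth muscle, the 10 highest and 10 lowest by ratio, with up to 6 per list and the marker genes. List members named beyond this rule (Ano1, Bgn, Cacna1c, Ccl11, Col5a1, Cxcl5, Cxcl10, Des, Ebf1, Ednra, Eln, Fbn1, Icam1, Itpr1, Myl9, Nfkbia, Nid1, Nr2f2, Pln, Prrx1, Ryr2, Sparc, Srf, Timp3, Zeb2 and endothelial markers) were chosen after their values were seen. Some genes that met the rule are not reported here. Scrublet (scanpy 1.11.5) was cut at a score of 0.25 in every library, set after its automatic threshold called no barcode in Sham, and marked 1.64%, 4.23% and 3.20% of barcodes. Coordinates are from GENCODE M21 (GRCm38), promoters from RefSeq.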

Additional observations from a re-analysis of the deposited data

How the results depend on the processing

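No paired analysis was possible because each group has 1 library. Over 18 alternative settings, 3 of them chosen after seeing the data, 6414 values of single genes and lists were set beside the reported ones. Of these, 5448 stayed within the counting interval or 1.5 times of the reported value, 952 moved and 14 were marked as turned. Only ratios of called genes could be marked as turned, so ratios with D2 and of uncalled genes were not counted there. Leaving out doublets removed no pericyte-like or smooth muscle cell, so its 486 values could not move. The D2 over Sham share was 1.5 among barcodes without Ptprc, and 0.0596 with cells thinned to 1000 UMIs. The D7 over D2 share was 3.18 and 40.9 in the same settings, and the D7 over Sham share 4.76 among barcodes without Ptprc. With a filter of 10 UMIs and 20 CPM, 625 genes were called higher and 299 lower in D7 than in Sham, and 40 lower than in smooth muscle, because more genes were measured. Leaving out each gene's top cell gave 432 higher and 113 lower, a setting that tends to lower the smaller Sham sum more. Calls could not be made with at least 3 further markers (17 Sham cells), without Myh11-holding cells (7) or thinned to 1000 or 2000 UMIs (9 and 15). D7 over Sham ratios that turned were, thinned to 1000 UMIs, Acta2 1.04, Myh11 1.01, Flna 1.42, Col12a1 0.675, Cygb 0.562, Ndufa4l2 0.412, S1pr3 0.45 and Trpc6 0.9, and thinned to 2000 UMIs, Bmp2 1.01. Without Myh11-holding cells they were Dstn 1.15 and Ndufa4l2 0.623, with at least 3 markers Dpt 0.728, with Ptprc and Pecam1 at 0 UMIs Mmp9 0.361, and without cells holding fibroblast genes Dcn 0.667. Beyond the fewer cells, the cause was not tested. Median-of-ratios scaling shifted D7 over Sham by a log2 value of −0.09. Depth limits genes under 50 CPM and everything in D2.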
